A study of Mus musculus with 24 samples.

Results

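The endothelial identity genes are 10 genes used to recognise the cells that line blood vessels: Pecam1, Cdh5, Tek, Tie1, Vwf, Emcn, Eng, Erg, Klf2 and Klf4. They were taken by symbol, each matched to 1 Ensembl gene, from the 55421 genes listed for every library, and all 10 passed edgeR's filter on low counts, as did 25033 genes in all. Bulk RNA sequencing was done on uninjured carotid arteries of female C57BL/6 mice, in 4 groups of 6 libraries, 24 in total. All mice, those of the OVX group included, had lost their ovaries. The OVX group carried placebo (vehicle), the E2 group 17β-estradiol, the E4 group estetrol, a natural fetal estrogen, and the TAM group tamoxifen, a drug that blocks or mimics estrogen depending on the tissue. The labels give an age of 9 weeks and 3 weeks of treatment, whereas the methods of the study describe a shorter one. Titles alone mark the E4 libraries as such, since their treatment label reads placebo. The amounts of E2 and E4 in the pellets differed, and the dose of tamoxifen was not given in the sources used here, so differences between treatments are differences between these regimens.

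Endothelial cells hold together through VE-cadherin and PECAM-1 at their junctions, and the ERG factor keeps their characteristic genes switched on. The angiopoietin receptors TIE1 and TIE2 and the BMP9 co-receptor endoglin pass survival and quiescence signals, and KLF2 and KLF4 rise in endothelium under steady blood flow. Von Willebrand factor is stored in endothelial granules and catches platelets where a vessel is injured. Whole arteries also hold smooth muscle, fibroblasts, nerves, fat and blood cells, so that fewer endothelial cells and less RNA per endothelial cell cannot be told apart in these libraries.

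Library totals ranged from 24647246 to 64221401 (median 45156107), and the 10 genes had between 318 and 22285 counts in a library. Levels are given as CPM, counts relative to the size of the library, scaled by edgeR's TMM method. The libraries OVX C5 and TAM C35 stood apart: the summed level of 8 sympathetic ganglion markers was 27.6 and 185 CPM in them against 2067 to 7866 CPM in the other 22 libraries. The same libraries had the highest mean log2 CPM over the 10 genes in their groups, 6.34 and 6.48. Their summed level of the 10 genes was 1004 and 1334 CPM, against 575.7 to 1072 CPM in the others. Animal numbers fell in 2 series, of 13 and 11 libraries, with 3 libraries of each treatment in either one and 4 and 2 vehicle libraries, and neither the labels nor the study says whether these are batches. The methods of the study place vehicle, E2 and E4 within 1 experiment and do not say so of TAM.

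Per kilobase of the longest protein-coding transcript, Pecam1 had the highest level of the 10 genes in every group and Emcn the lowest. Pecam1 stood at 75.7 ± 16.7 CPM per kb in vehicle (SD, n = 6, as for all group means here) and Emcn at 7.01 ± 1.44. Every vehicle library had more Pecam1 per kb (at least 54.9) than any had of Cdh5, the next gene (at most 26.7). The other 8 neighbouring pairs in the vehicle order, from Cdh5 at 18.9 ± 4.75 CPM per kb down to Emcn, overlapped between libraries and so were not separated. Vwf ranked 9 of 10 in vehicle, 2 in E2, 2 in E4 and 3 in TAM, while Emcn stayed at 10. The Vwf ranks depend on the length used, here 8834 bases, whereas all annotated exons of Vwf together cover 16064 bases. Ranks by that longer length were not computed. In each treated group 7 of the 9 neighbouring pairs overlapped. The exceptions were Pecam1 above the gene in second place, and the gene in ninth place above Emcn.

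Vwf encodes von Willebrand factor and lies on chromosome 6 (GRCm38, 125546774 to 125686679, plus strand). Its level was higher in all 3 treated groups than in vehicle. In vehicle libraries it ranged from 68.9 to 113.0 CPM with a median of 79.8. With E2 it ranged from 179.3 to 280.7 CPM (median 188.6), and with E4 from 165.8 to 294.2 CPM (median 192.5). With TAM it ranged from 123.6 to 244.6 CPM (median 152.2). Every treated library thus stood above every vehicle library, also in the TAM group, which came closest to vehicle. Group means were 87.2 ± 18.4 CPM in vehicle, 202.5 ± 38.7 with E2, 210.5 ± 49.0 with E4 and 170.7 ± 51.8 with TAM.

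In edgeR's quasi-likelihood test of all 24 libraries with Benjamini-Hochberg adjustment, the log2 fold change of Vwf was 1.22 ± 0.19 (SE) with E2, 2.32-fold, at an adjusted p of 0.00017. With E4 it was 1.27 ± 0.19, 2.41-fold, at an adjusted p of 0.000216 by the same edgeR test. With TAM it was 0.97 ± 0.18, 1.96-fold, at an adjusted p of 0.011. The TAM difference passed the test but not the study's additional threshold of an absolute log2 fold change over 1. The 3 comparisons share the vehicle libraries and are not independent of each other.

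The Vwf differences had the same direction in both number series. With E2 the log2 fold change was 1.01 in the first series and 1.501 in the second (edgeR adjusted p 0.0176 and 0.132). For E4 the values were 1.09 and 1.56 (edgeR adjusted p 0.0124 and 0.164). Over 37 alternatives adjusted p ran from 1.4e-08 to 0.132 with E2 and from 2.7e-09 to 0.164 with E4, the second series being the 1 setting that lost either call. That series called 92 genes in all for E2 and 5 for E4. The TAM values were 0.61 and 1.39, and neither passed (edgeR adjusted p 0.112 and 0.776), in fits that called 1 and 0 of all genes. The TAM call was also lost when only TAM and vehicle libraries were fitted (0.97, adjusted p 0.0759) and with the B cell marker mean as a covariate (0.91, adjusted p 0.178), a fit that called 16 genes in all. Over all 36 alternatives the TAM value stayed between 0.61 and 1.39, with adjusted p from 7.8e-05 to 0.776.

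Platelets and megakaryocytes also make von Willebrand factor. Of their 5 markers none passed the test with E2 or TAM, and Ppbp (-1.39 ± 0.43) and Pf4 (-0.57 ± 0.18) fell with E4. The summed platelet marker level was 26.5 to 51.3 CPM in vehicle, 36.3 to 55.6 with E2, 20.7 to 30.4 with E4 and 21.9 to 33.6 with TAM, with medians of 32.9, 46.6, 25.7 and 26.6 CPM. With E2 all 5 markers had values above 0, from 0.06 to 1.11. Their part in the Vwf values was not tested. Among 10 genes of Weibel-Palade bodies, the granules that store the protein, and of its handling, 9 could be tested. None of the 9 passed with E2 or TAM, and 1 fell with E4, Edn1, which encodes the vasoconstrictor endothelin-1 (-0.75 ± 0.22). The median log2 fold change of these 9 genes was 0.02 with E2, 0.12 with E4 and 0.07 with TAM.

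**Figure D1:**
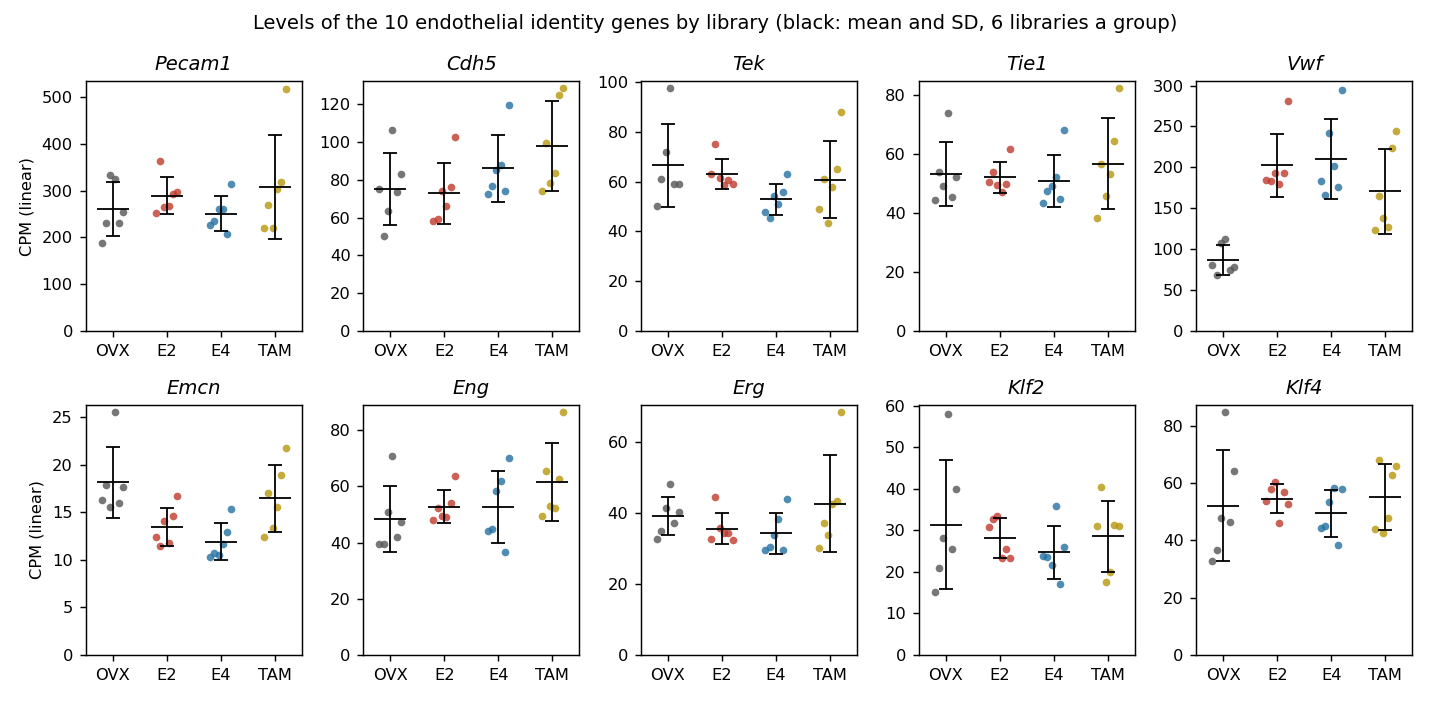
CPM (linear axes from 0) of each of the 10 genes in every library, in vehicle (OVX), E2, E4 and TAM, with black bars for the mean and SD of 6 libraries. The Vwf points of all treated groups lie above the highest vehicle point at 113.0 CPM, and the E4 points of Emcn lie below the lowest vehicle point at 15.6 CPM, while the groups overlap in the other panels.

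Emcn encodes endomucin, a sialoglycoprotein of the endothelial surface best known from capillaries and veins, and lies on chromosome 3 (GRCm38, 137341067 to 137432185, plus strand). It was the least abundant of the 10 genes, and was lower with E4. Vehicle libraries ranged from 15.6 to 25.5 CPM (median 17.0). E4 libraries ranged from 10.3 to 15.4 CPM (median 11.2) and did not overlap them, although the highest E4 and the lowest vehicle library nearly touched. E2 libraries (11.5 to 16.7 CPM, median 13.3) and TAM libraries (12.4 to 21.8 CPM, median 16.3) overlapped vehicle. Means were 18.2 ± 3.7 CPM in vehicle, 13.5 ± 2.0 with E2, 11.9 ± 1.9 with E4 and 16.5 ± 3.5 with TAM.

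Against vehicle the log2 fold change of Emcn with E4 was -0.61 ± 0.14, at an adjusted p of 0.0058 (edgeR, Benjamini-Hochberg). With E2 it was -0.43 ± 0.14 and did not pass (edgeR adjusted p 0.102, 95% interval -0.72 to -0.13 without adjustment). With TAM it was -0.14 ± 0.14 (edgeR adjusted p 0.617). In the first number series the E4 value was -0.84 (adjusted p 0.0185) and in the second -0.33, which did not pass (edgeR adjusted p 0.510). With the B cell marker mean as a covariate, a fit that called 116 genes in all for E4, the E4 value was -0.54 and the call was lost (edgeR adjusted p 0.237), and over all 37 alternatives it stayed between -0.84 and -0.33, with adjusted p from 0.00017 to 0.510. All 5 B cell markers fell with E4, by 1.34 to 2.57 on the log2 scale, with summed levels of 4.4 to 30.6 CPM in vehicle and 2.1 to 6.2 CPM with E4. Once the mean of the ganglion markers was a covariate, the E4 value of Emcn was -0.42 and kept its call. None of the 7 other genes of venous and capillary endothelium passed the test against vehicle in any treated group.

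The test thus called 1 of the 10 genes with E2, 2 with E4 and 1 with TAM. With E2, 4.16% of the 25033 genes passed the test, 2.88% higher and 1.28% lower, 1.27% also passed the fold threshold, and 2.83% had groups that did not overlap. Vwf was the member counted in each of these shares but the lower one. For E4 the shares were 22.0%, 9.52% higher, 12.5% lower, 2.51% with the fold threshold and 9.37% without overlap, and the members were Vwf and Emcn, of which Vwf alone passed the fold threshold. With 2 of 10, the E4 count was close to that background. For TAM they were 2.21%, 1.29% higher, 0.919% lower, 0.308% with the fold threshold and 2.58% without overlap, and Vwf was the member in all but the lower and fold shares. The median log2 fold change of the 10 genes was -0.04 with E2, -0.07 with E4 and 0.11 with TAM, beside 0.01, -0.01 and 0.00 over all genes tested.

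**Figure D2:**
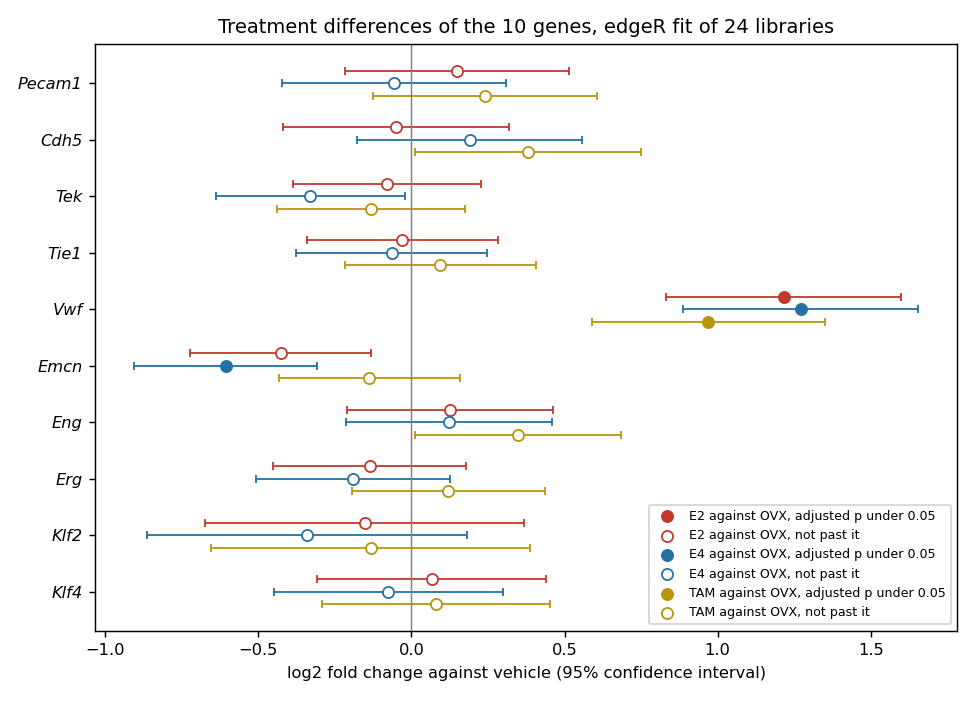
Log2 fold change against vehicle (horizontal axis) of the 10 genes with E2, E4 and TAM, with 95% confidence intervals from the edgeR fit of 24 libraries, filled where the adjusted p was under 0.05. Vwf stands to the right with all 3 treatments, at 1.22, 1.27 and 0.97, Emcn is filled with E4 at -0.61, and the other 8 genes lie between -0.34 and 0.38 with open symbols.

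Pecam1, the junctional adhesion molecule PECAM-1 (chromosome 11, 106654217 to 106750628, minus strand), is also carried by platelets and leukocytes. It ranged from 188.8 to 333.8 CPM in vehicle, 252.8 to 362.2 with E2, 206.6 to 313.9 with E4 and 219.1 to 517.1 with TAM. Its log2 fold changes were 0.15 ± 0.18 with E2, -0.06 ± 0.18 with E4 and 0.24 ± 0.18 with TAM, none past the threshold (edgeR adjusted p 0.802, 0.841 and 0.461). All 4 groups overlapped, and without adjustment the widest 95% interval, that of TAM, reached 0.61.

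Cdh5 encodes VE-cadherin, which ties neighbouring endothelial cells together (chromosome 8, 104101625 to 104144511, plus strand). Its levels were 50.5 to 106.5 CPM in vehicle, 58.1 to 102.4 with E2, 72.2 to 119.6 with E4 and 74.2 to 128.2 with TAM. Groups overlapped, and the log2 fold changes of -0.05 ± 0.18, 0.19 ± 0.18 and 0.38 ± 0.18 did not pass (edgeR adjusted p 0.957, 0.456 and 0.225). Of 10 partners of VE-cadherin in adherens junctions, none passed with E2. With E4, Jup (plakoglobin, 0.77 ± 0.15), Ctnnd1 (p120-catenin, 0.23 ± 0.08) and the phosphatase gene Ptpn11 (0.18 ± 0.07) rose, and the phosphatase gene Ptpn6 (-0.66 ± 0.15) fell. Jup (0.61 ± 0.15) and Ctnnd1 (0.30 ± 0.08) also rose with TAM. These partners are expressed in many cell types of the wall, and blood cells express Ptpn6.

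Tek encodes TIE2, the receptor of angiopoietins (chromosome 4, 94739289 to 94874976, plus strand). Tek ranged from 50.03 to 97.6 CPM in vehicle, 58.6 to 74.9 with E2, 45.4 to 63.2 with E4 and 43.6 to 87.9 with TAM. The 4 groups overlapped. Its lowest fold change was that with E4, -0.33 ± 0.15, with a 95% interval of -0.64 to -0.02 before adjustment and an edgeR adjusted p of 0.112. The E4 value was -0.18 without the vehicle library C5, -0.09 once the mean of the ganglion markers was a covariate, and -0.05 in the second number series. The first 2 settings are not separate checks. The ganglion mean (log2 CPM) was 0.81 in OVX C5 and 3.81 in TAM C35, and at least 7.07 in every other library. With E2 the value was -0.08 ± 0.15 and with TAM -0.13 ± 0.15.

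Tie1, the partner receptor without a well-established ligand of its own (chromosome 4, 118471191 to 118490061, minus strand), ranged from 44.4 to 73.7 CPM in vehicle and from 38.3 to 82.4 CPM over the treated groups. The groups overlapped, and its log2 fold changes were -0.03 ± 0.15 with E2, -0.06 ± 0.15 with E4 and 0.09 ± 0.15 with TAM. The unadjusted 95% intervals of all 3 lay between -0.38 and 0.41. Among 7 ligands and partners of the TIE receptors, the adaptor gene Dok2 rose with E2 (0.82 ± 0.17). The ligand gene Angpt1 fell (-0.64 ± 0.18) and the adaptor gene Grb2 rose (0.60 ± 0.15) with E4. Svep1, an extracellular matrix gene, rose with TAM (0.63 ± 0.15). Dok2 is also a macrophage and T cell gene, and the 5 macrophage markers rose with E2 as well, with summed levels of 206.9 to 362.6 CPM in vehicle and 378.7 to 502.3 CPM with E2. Their part in the Dok2 value was not tested.

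Eng encodes endoglin, the co-receptor for BMP9 and TGF-β ligands (chromosome 2, 32646595 to 32682669, plus strand). Its exons overlap those of Fpgs on the opposite strand, and the strand setting of the counting is not stated, so reads of the 2 genes may be mixed. Eng ranged from 39.5 to 70.7 CPM in vehicle, 48.1 to 63.5 with E2, 36.6 to 70.1 with E4 and 49.5 to 86.5 with TAM. The groups overlapped. The log2 fold changes were 0.13 ± 0.16 with E2, 0.12 ± 0.16 with E4 and 0.35 ± 0.16 with TAM, and none passed (edgeR adjusted p 0.826, 0.611 and 0.223). The TAM value passed once the mean of the ganglion markers was a covariate (0.45).

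In the endoglin and BMP9 pathway 16 of 17 genes could be tested. Tmem100, an endothelial gene induced by BMP9, rose with E2 (0.40 ± 0.08) and fell with E4 (-0.29 ± 0.08). With E4 the inhibitory Smad7 (0.51 ± 0.16) and the common mediator Smad4 (0.20 ± 0.07) also rose, and the BMP mediator Smad5 (-0.30 ± 0.07) fell. None of the 16 passed with TAM. The direct comparison of E4 with E2 gave -0.69 ± 0.08 for Tmem100 and 0.81 ± 0.16 for Smad7, and Id1, a BMP target, was also higher with E4 (0.73 ± 0.22). For TAM against E2 the test called the first pair as well, Tmem100 lower with TAM (-0.59 ± 0.08) and Smad7 higher (0.83 ± 0.16), while Id1 did not pass (0.73 ± 0.22).

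The bases ahead of the first annotated transcript start are shown for Emcn, which fell with E4, and for Eng, since both hold the core letters bound by ETS factors such as ERG. RefSeq promoters (GRCm38.p6, 250 bases before to 50 after a start) were found for 7 of the 10 genes, 9 promoters in all, and none for Pecam1, Cdh5 or Vwf. AGGAAG, searched on both strands, occurred in 4 of the 9, beside 35.4% of 32851 mouse promoters of this length. It was present in 2 copies each in Tie1, Emcn and Eng. Capitals mark AGGAAG or its reverse complement, and both windows are on the plus strand, 5′ to 3′, at chr3:137340828-137341066 for Emcn and chr2:32646345-32646594 for Eng.
Emcn: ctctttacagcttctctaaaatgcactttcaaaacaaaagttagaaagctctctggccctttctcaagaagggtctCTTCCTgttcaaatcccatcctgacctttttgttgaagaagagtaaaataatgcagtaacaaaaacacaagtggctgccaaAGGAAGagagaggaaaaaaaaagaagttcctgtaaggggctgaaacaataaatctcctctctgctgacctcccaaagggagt
Eng: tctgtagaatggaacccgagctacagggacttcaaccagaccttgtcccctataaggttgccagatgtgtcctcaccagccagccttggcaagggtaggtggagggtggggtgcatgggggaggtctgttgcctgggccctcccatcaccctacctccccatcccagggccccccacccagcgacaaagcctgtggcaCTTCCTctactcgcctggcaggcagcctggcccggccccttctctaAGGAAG
GGTCA, one arm of the palindromic estrogen response element, occurred in 4 of the 9 promoters and in 40.5% of all, in 2 copies in Emcn. The full palindrome with 3 free bases was in none of the 9 and in 0.07% of all. CACCC, a core bound by KLF factors, was in 6 of 9 (57.5% of all), and TATTTATA, a form of the MEF2 site, in 1 of 9 (1.7% of all). GGTCA overlaps the full palindrome by construction, and a match describes the letters in the window, not binding.

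Erg encodes the ETS factor ERG (chromosome 16, 95359169 to 95586593, minus strand). Its levels ranged from 32.8 to 48.1 CPM in vehicle, 32.4 to 44.5 with E2, 29.6 to 44.0 with E4 and 30.1 to 68.6 with TAM, with overlap between all groups. Log2 fold changes of -0.14 ± 0.15, -0.19 ± 0.15 and 0.12 ± 0.15 did not pass (edgeR adjusted p 0.782, 0.380 and 0.691). Of 14 other endothelial transcription factors, Elk3, an ETS factor, rose with E2 (0.48 ± 0.09) and with E4 (0.26 ± 0.09). Lmo2, a blood and endothelial cofactor, rose with E2 (0.81 ± 0.21). With E4, Etv6, another ETS factor, rose (0.27 ± 0.07), while Hhex (-0.69 ± 0.15) and Sox17, a factor of arterial endothelium (-0.39 ± 0.13), fell. None of the 14 passed with TAM.

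Klf2 and Klf4, the flow-responsive zinc finger factors (chromosome 8, 72319033 to 72321656, plus strand, and chromosome 4, 55527143 to 55532466, minus strand), had the widest spread among vehicle libraries. Klf2 ranged from 15.1 to 58.1 CPM in vehicle, a coefficient of variation of 49.6%. It ranged from 23.3 to 33.5 CPM with E2, 17.1 to 35.96 with E4 and 17.5 to 40.4 with TAM. All treated libraries lay within the vehicle range. Klf4 ranged from 32.9 to 84.9 CPM in vehicle (37.0%), 46.2 to 60.3 with E2 (9.15%), 38.5 to 58.3 with E4 and 42.5 to 68.1 with TAM. Here too every treated library lay within the vehicle range. For both genes OVX C5 alone set the upper end of that range. The next vehicle library, C25, had 39.9 CPM of Klf2 and 64.2 of Klf4, and TAM C12 exceeded both (40.4 and 68.1).

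For Klf2 the log2 fold changes were -0.15, -0.34 and -0.13 with E2, E4 and TAM, each ± 0.25, so that a change of 0.86 downward with E4 or 0.39 upward with TAM was inside the unadjusted 95% intervals. The E4 value of Klf2 was -0.06 without the vehicle library C5 and -0.0051 once the mean of the ganglion markers was a covariate. As given for Tek, these settings are not separate checks. For Klf4 the log2 fold changes were 0.07, -0.08 and 0.08, each ± 0.18. None of the 6 passed, with edgeR adjusted p from 0.338 to 0.941. Both genes are also expressed in other cells of the wall, and of 10 immediate early markers Dusp1 (-1.16 ± 0.23), Fos (-1.08 ± 0.35) and Atf3 (-0.87 ± 0.30) fell with E4. The summed level of the 10 markers was 525.2 to 1146 CPM in vehicle and 587.5 to 806.0 CPM with E4, and its part in the Klf values was not tested.

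Upstream of both factors, in the MEK5, ERK5 and MEF2 cascade, none of 12 genes passed with E2 or TAM. With E4 the kinase gene Map2k5, which encodes MEK5, rose (0.25 ± 0.08) and Map3k2 fell (-0.28 ± 0.07). Of 15 endothelial genes known as KLF2 and KLF4 targets, Hmox1, heme oxygenase 1, rose with E2 (0.59 ± 0.15). With E4, Nos3, the endothelial nitric oxide synthase (-0.49 ± 0.15), and Edn1 fell, and with TAM none passed. KLF2 is known to raise Nos3 and to lower Edn1, so the list holds members of both directions. Hmox1 is also a macrophage gene, and the macrophage markers rose with E2 as given above.

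Of 14 other KLF factors 12 could be tested. None passed with E2. With E4, Klf16 (0.73 ± 0.14), Klf13 (0.68 ± 0.12) and the glucocorticoid-responsive Klf9 (0.57 ± 0.14) rose, and Klf12 (-0.53 ± 0.14) and Klf6 (-0.34 ± 0.11) fell. Klf9 (0.65 ± 0.14) and Klf13 (0.62 ± 0.12) rose with TAM too. E4 against E2, where 12.5% of all genes passed, gave 4 calls of the 12, all higher with E4. They were Klf15 (0.63 ± 0.19), Klf9 (0.49 ± 0.14), Klf13 (0.43 ± 0.12) and Klf11 (0.38 ± 0.12). TAM against E2, where 6.44% of all genes passed, gave 2, Klf15 (0.79 ± 0.19) and Klf9 (0.57 ± 0.14), both higher with TAM. Klf2 (-0.19 ± 0.25) and Klf4 (-0.14 ± 0.18) did not pass for E4 against E2, and the KLF genes were not tested against each other.

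Between treatments edgeR called 0 of the 10 genes, and so did DESeq2. For E4 against E2 12.5% of all genes passed, for TAM against E2 6.44%, and for TAM against E4 0.340%. Unadjusted p was under 0.05 for 0 of the 10 genes in E4 against E2, and for 1 each in TAM against E2 (Cdh5) and in TAM against E4 (Emcn), beside 30.2%, 21.2% and 9.12% of all genes tested. The log2 difference of Vwf was 0.06 (95% interval -0.32 to 0.43) for E4 against E2, -0.25 (-0.62 to 0.13) for TAM against E2 and -0.30 (-0.68 to 0.08) for TAM against E4. These intervals do not show that the treatments acted alike. For Emcn the differences were -0.18 (-0.48 to 0.12), 0.29 (-0.01 to 0.59) and 0.47 (0.17 to 0.77), the last with an edgeR adjusted p of 0.235. For Cdh5 they were 0.24 (-0.13 to 0.61), 0.43 (0.06 to 0.80) and 0.19 (-0.18 to 0.56).

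A list of 20 other pan-endothelial genes served as a yardstick for the 10. Of these 20, 1 passed with E2, Cd34 (0.72 ± 0.17), a surface sialomucin that fibroblasts and progenitors also carry. With E4, Plvap (0.77 ± 0.21) and Tspan18 (0.64 ± 0.14) rose, and Egfl7 (-0.67 ± 0.14), Gpihbp1 (-0.62 ± 0.19), Icam2 (-0.50 ± 0.16) and Nos3 fell. With TAM none passed. The median log2 fold change of the 20 was -0.05, -0.22 and 0.03 with E2, E4 and TAM. Of 12 arterial endothelial genes, the Notch ligand gene Jag1 fell with E2 (-0.43 ± 0.10) and E4 (-0.59 ± 0.10), and Sema3g (0.72 ± 0.17) and Notch1 (0.38 ± 0.11) rose with E4.

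Measured against the mean log2 CPM of these 20 genes in the same library, Vwf stood at 0.59 to 1.19 above the mean in vehicle, 1.89 to 2.37 with E2, 2.01 to 2.46 with E4 and 1.36 to 1.96 with TAM. All treated libraries lay above vehicle on this scale too. Emcn stood at -1.60 to -1.35 in vehicle, -2.11 to -1.70 with E2, -2.06 to -1.75 with E4 and -1.73 to -1.61 with TAM. On this relative scale every treated library lay below every vehicle library, the closest, of TAM, by a narrow gap (-1.61 against -1.60). How many of all genes separate on this scale was not computed, so for Vwf and Emcn alike these ranges are a description. In CPM only the E4 group had been free of overlap with vehicle for Emcn.

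With the mean of the 20 genes as a covariate, an alternative added after the data had been seen, the edgeR test called 2 of the 10 genes with E2 (Vwf and Emcn), 4 with E4 (Vwf, Emcn, Cdh5 and Eng) and 2 with TAM (Vwf and Eng). In that fit Emcn was at -0.42 with E2 and -0.45 with E4. Cdh5 was at 0.37 with E4, and Eng at 0.29 with E4 and 0.30 with TAM. Between treatments, Vwf passed for TAM against E4 (-0.55), Emcn for TAM against E2 (0.23), and Cdh5 for E4 and for TAM against E2 (0.42 and 0.37). The covariate is measured in the same libraries and holds genes that themselves passed the test with E4, and it raised the number of calls over all genes as well. The same fit called 1663 genes in all for E2, 6030 for E4 and 1775 for TAM against vehicle, 3518 for E4 against E2, 2697 for TAM against E2 and 140 for TAM against E4.

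**Figure D3:**
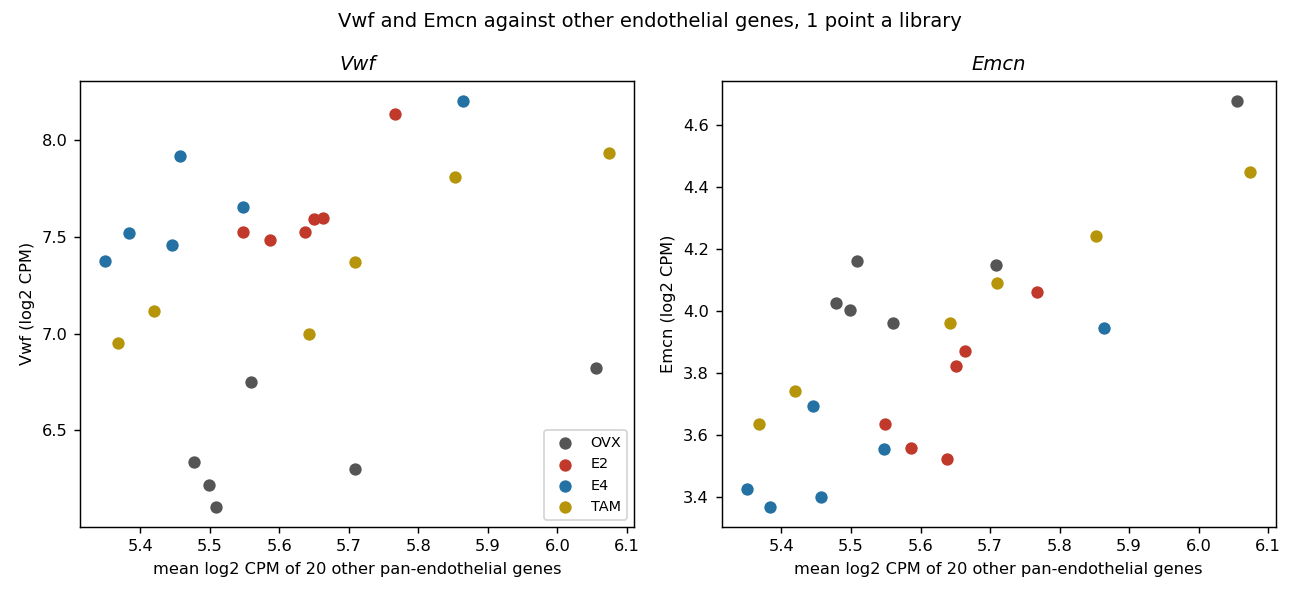
Log2 CPM of Vwf (left) and Emcn (right) in each of the 24 libraries against the mean log2 CPM of 20 other pan-endothelial genes (horizontal axes), coloured by group. At the same horizontal position treated libraries lie above vehicle for Vwf (at least 1.36 above the list mean, vehicle at most 1.19) and below vehicle for Emcn.

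Within groups the levels of the 10 genes were positively correlated from library to library, to differing degrees. Pairs of other genes were not computed for comparison. After the mean of each group was subtracted from log2 CPM, Pearson's r over the 24 libraries was between 0.34 and 0.93 for the 45 pairs, with a median of 0.71. The highest was Pecam1 with Erg (r 0.935, Spearman's rho 0.900), followed by Klf2 with Klf4 (r 0.887, rho 0.848) and Tie1 with Emcn (r 0.881, rho 0.705). Over the 24 libraries 6 pairs had r under 0.5, and each held Klf2, the lowest being Klf2 with Vwf at 0.341. Without OVX C5 and TAM C35 the median was 0.59 and the range 0.14 to 0.88. In those 22 libraries 16 pairs were under 0.5, of which 8 held Klf2 and 8 did not, such as Cdh5 with Tek at 0.28 and Pecam1 with Emcn at 0.37. All points share the library, its scaling and the mix of cells sampled, so these values are a description.

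**Figure D4:**
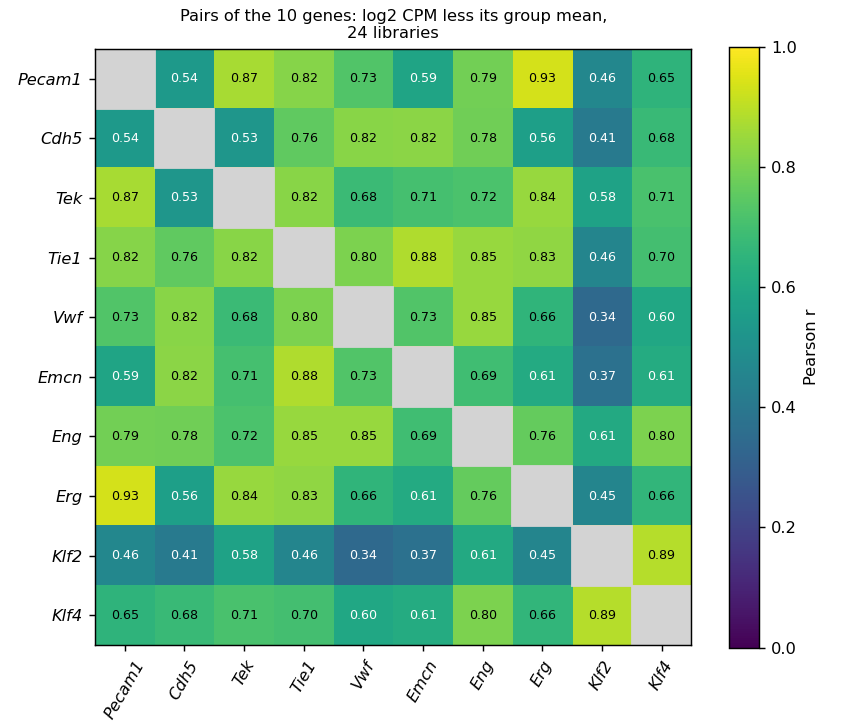
Pearson's r (colour, from 0 to 1) for the 45 pairs of the 10 genes over 24 libraries, on log2 CPM less the mean of each group. The Pecam1 and Erg cell is the highest at 0.93, Klf2 with Klf4 stands at 0.89, and 6 values are under 0.5, all in the Klf2 row. Without OVX C5 and TAM C35, which the plot includes, 16 pairs were under 0.5, and 8 of them lay outside that row.

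Outside the 10 genes, those most like their mean profile over the 24 libraries were led by Mmrn2, an endothelial matrix gene (r 0.958), Kif1c, a kinesin (0.954), and Syde1 (0.941). The others of the first 10 were Gm6032, Ankrd13a, Cavin1, Tnks1bp1, Gm11560, Esam, an endothelial adhesion molecule, and Fn1, fibronectin, at 0.936 down to 0.923. Gm6032 and Gm11560 are annotated as processed pseudogenes, whose reads can belong to their parent genes. Without OVX C5 and TAM C35 Mmrn2 stood at 0.941 and Fn1 at 0.869. Next to Klf2 stood Klf4, Plekhf1 (0.860), Amotl2 (0.855), Cd163 (0.829) and Ifi207 (0.817). Next to Klf4 stood Gm48640 (0.905), Akip1 (0.896), Sav1 (0.894), Klf2 and Gm6032 (0.871).

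Markers of the other cells of the wall moved as follows. Smooth muscle, T cell, skeletal muscle and thyroid markers had no call against vehicle in any treated group. The 8 sympathetic ganglion markers had none either, but all of their fold changes were above 0, at 0.58 to 1.22 with E4 (median 0.91), 0.29 to 0.78 with TAM (median 0.51) and 0.06 to 0.33 with E2 (median 0.17). Their summed level had a median of 4237 CPM in vehicle (27.6 to 5738) and 6984 CPM with E4 (4529 to 7866). The 27.6 is that of OVX C5, which lowers the vehicle mean. Without it vehicle libraries had 2623 to 5738 CPM, beside 2067 to 5625 CPM with E2. Fold changes of these markers without OVX C5 were not computed. Fibroblast markers fell with E4 in 3 of 5 (Pi16, Lum and Col1a1). With TAM Col1a1 rose (0.75), while the other 4 had values below 0 and were not called. B cell markers fell in 2 of 5 with TAM, Ms4a1 (-1.79 ± 0.43) and Cd79b (-1.51 ± 0.40). The 5 macrophage markers rose with E2, by 0.60 to 0.92, and Mrc1 fell with E4 (-0.55 ± 0.16). One of 4 lymphatic markers, Lyve1, which macrophages also carry, rose with E2 (1.24 ± 0.16), while Sox10 of 4 Schwann cell markers rose with E4 and Lep of 4 adipocyte markers fell with E4 and TAM. Summed smooth muscle markers stood at 2239 to 4705 CPM in vehicle and reached 7945 CPM in TAM C35. The part of these cells in the values of the 10 genes was not tested. The ganglion and B cell covariates were alternative fits, and the ganglion one mainly sets OVX C5 and TAM C35 apart.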

How the data were processed

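Poly(A) RNA of carotid arteries was sequenced with a stranded kit, each library having its own animal number. The submitters' processing notes name bcl2fastq 2.17, Trim Galore, Bowtie2 and featureCounts with mm10/GRCm38, and counting options were not given in the sources used here. The authors deposited 1 estimated count per gene and library, without normalization, and the 8.87% to 9.8% of values with decimals were rounded here. No libraries agreed within sampling noise. Symbols and coordinates came from GENCODE M21, which holds 55240 of the 55421 genes.

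Genes were tested with edgeR 4.0.16 in R 4.3.3 (quasi-likelihood, TMM, default filter, Benjamini-Hochberg) in 1 fit of 24 libraries without covariates, and called at an adjusted p under 0.05. Standard errors came from the F statistic, and log2 CPM used a prior count of 2. The procedure was tested on simulated data. Alternatives were DESeq2 1.42.0, its size factors, other filters, sets of libraries, the number series, marker means as covariates and leaving out each library. All 10 genes were named in every comparison, with at most 3 called genes from either end of every other list, and the 10 or 5 most alike genes with a mean of at least 1 CPM. The genes and lists were chosen with earlier results of these data known. P-values measure the spread between these libraries. For 1 gene of the lists the result is not reported here.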

Additional observations from a re-analysis of the deposited data

Results flagged for a closer look

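In 10 of the 40 groups of 6 libraries (10 genes in 4 groups) the highest library lay apart by Dixon's criterion, a gap over 0.625 of the group's range, where chance gives about 2. The values of 1 library are not independent across genes. OVX C5 was the library for Tie1 (73.7 CPM, the others 44.4 to 53.9), Emcn (25.5 CPM, the others 15.6 to 17.9) and Eng (70.7 CPM, the others 39.5 to 50.9). TAM C35 was it for Pecam1 (517 CPM, the others 219 to 317) and Erg (68.6 CPM, the others 30.1 to 43.3). Those 2 libraries are also the ones with few ganglion transcripts. E4 C39 stood out for Cdh5 (120 CPM, the others 72.2 to 87.8) and Tie1 (67.9 CPM, the others 43.4 to 52.1), and E2 C8 for Tek (74.9 CPM, the others 58.6 to 62.9) and Erg (44.5 CPM, the others 32.4 to 35.7). E2 C29 had the highest Vwf of its group (281 CPM, the others 179 to 194).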

How the results depend on the processing

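Among 2190 fold changes of the 10 genes over the alternatives, 2043 kept direction and side of the threshold, 8 lost a call, 9 gained one and 130 changed sign. No called value changed sign, the largest reversed value was 0.324 in size and the smallest adjusted p of a reversed value was 0.146. Leaving out any single library kept the number of called genes in all 6 comparisons: Vwf then lay between 1.10 and 1.30 with E2, 1.15 and 1.37 with E4 and 0.85 and 1.07 with TAM, and Emcn with E4 between -0.69 and -0.48. The second number series alone, with 2 vehicle libraries, called 0 of the 10 genes against vehicle with any treatment, in fits that called 92, 5 and 0 of all genes for E2, E4 and TAM. The first series called 0 with TAM, and 1 of all genes. The fit of TAM and vehicle libraries alone called 0, and 39 of all genes. With the ganglion covariate 2 genes were called with TAM (Vwf and Eng), and 1396 of all genes, and with the B cell covariate 1 with E4 and 0 with TAM, in a fit that called 116 and 16 of all genes, against 5514 and 553 as reported. The pan-endothelial covariate gave 2 for E2, 4 for E4 and 2 for TAM against vehicle, 1 for E4 against E2, 2 for TAM against E2 and 1 for TAM against E4. The causes of these changes were not tested. No paired analysis was possible because no replicate number occurs in more than 1 group. Counting error is small at 318 counts or more, so the spread between libraries and not depth limits these values.

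Eng in E4 against E2, at -0.0037, was near 0 and changed sign under DESeq2 (0.012), its size factors (0.012), no filter (0.0068), at least 10 counts in every library (0.0042) and the fit of E2 and E4 alone (0.00042). In the first number series alone the reversed values were Eng -0.0080 and Klf2 0.081 for E2 against OVX, Eng -0.036 for E4 against OVX, Pecam1 -0.21, Tie1 -0.25 and Erg -0.23 for TAM against OVX, Pecam1 -0.32, Tie1 -0.14, Erg -0.17, Klf2 -0.14 and Klf4 -0.17 for TAM against E2, Pecam1 -0.035 and Tie1 -0.0040 for TAM against E4. In the second number series alone the reversed values were Cdh5 0.052, Tie1 0.10 and Klf4 -0.10 for E2 against OVX, Pecam1 0.12 and Tie1 0.18 for E4 against OVX, Tek 0.26 and Emcn 0.16 for TAM against OVX, Tie1 0.076, Eng 0.034, Erg 0.17, Klf2 0.15 and Klf4 0.0042 for E4 against E2, Tek 0.26 for TAM against E2. With the mean of the ganglion markers in the fit the reversed values were Cdh5 0.061, Tek 0.066, Tie1 0.10 and Klf2 0.064 for E2 against OVX, Pecam1 0.15, Tie1 0.15, Erg 0.0033 and Klf4 0.18 for E4 against OVX, Klf2 0.079 for TAM against OVX, Tie1 0.047, Eng 0.074 and Erg 0.033 for E4 against E2, Klf4 -0.0060 for TAM against E2. With the B cell marker mean in the fit the reversed values were Tie1 0.042 and Klf2 0.083 for E2 against OVX, Pecam1 0.12, Tie1 0.087, Klf2 0.14 and Klf4 0.21 for E4 against OVX, Klf2 0.23 for TAM against OVX, Tie1 0.044, Eng 0.095, Erg 0.045, Klf2 0.058 and Klf4 0.011 for E4 against E2. Without OVX C5 and TAM C35 the reversed values were Cdh5 0.073, Tek 0.059, Tie1 0.085 and Klf2 0.12 for E2 against OVX, Pecam1 0.028, Tie1 0.065 and Klf4 0.13 for E4 against OVX, Klf2 0.11 for TAM against OVX, Eng 0.0091 for E4 against E2, Pecam1 -0.12, Tie1 -0.0074, Klf2 -0.0014 and Klf4 -0.038 for TAM against E2. With the mean of the other pan-endothelial genes as a covariate, chosen after seeing the data the reversed values were Pecam1 0.10, Tie1 0.10 and Klf4 0.14 for E4 against OVX, Tie1 0.13, Eng 0.15, Erg 0.084 and Klf4 0.025 for E4 against E2, Pecam1 -0.0087, Klf2 -0.031 and Klf4 -0.051 for TAM against E2, Cdh5 -0.051, Tek -0.019, Tie1 -0.083, Klf2 -0.0045 and Klf4 -0.076 for TAM against E4. With each library left out in turn, values that crossed 0 ranged as follows. For E2 against OVX the ranges were Cdh5 -0.17 to 0.074, Tek -0.15 to 0.064, Tie1 -0.084 to 0.088, Klf2 -0.29 to 0.12 and Klf4 -0.036 to 0.26. For E4 against OVX the ranges were Pecam1 -0.13 to 0.027, Tie1 -0.16 to 0.062 and Klf4 -0.18 to 0.13. For TAM against OVX the ranges were Tek -0.26 to 0.019, Tie1 -0.035 to 0.22, Erg -0.059 to 0.20, Klf2 -0.28 to 0.14 and Klf4 -0.022 to 0.28. For E4 against E2 the ranges were Tie1 -0.13 to 0.020, Vwf -0.063 to 0.17, Eng -0.10 to 0.081 and Erg -0.14 to 0.020. For TAM against E2 the ranges were Pecam1 -0.12 to 0.17, Tek -0.18 to 0.029, Tie1 -0.0071 to 0.22, Klf2 -0.11 to 0.13 and Klf4 -0.055 to 0.079.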
